A study of Mus musculus with 4 samples.

Results

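The genes described are the forkhead transcription factor genes of the mouse. They were the protein-coding genes whose symbol is Fox followed by 1 letter from a to s and a number, which gave 44 of the 21631 protein-coding genes on the autosomes and X in the RefSeq gene table of the mouse build GRCm38.p6 (mm10). Open chromatin around them was read from ATAC-seq, an assay in which the Tn5 transposase cuts and tags accessible DNA, and a peak is a stretch with more cuts than its surroundings. The cells were germ cells of C57BL/6J female fetal ovaries at E14.5 (embryonic day), enriched on SSEA1 MicroBeads (SSEA1 is a carbohydrate antigen on the surface of early germ cells), with about 10000 cells for each of 4 samples.

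There were 2 samples labelled Gata2WT and 2 labelled Gata2cKO. All embryos came from crosses of Gata2flox/+ Prdm1-Cre males with Gata2flox/flox females, so every embryo carried at least 1 floxed Gata2 allele, and the labels do not spell out the full genotype behind the name Gata2WT. In Gata2cKO embryos, floxed Gata2, the gene of a zinc finger transcription factor, was to be deleted by a Cre under the control of Prdm1, which is active in the germ line and also in some other embryonic cells. The series title names pluripotency exit and meiotic initiation as the processes under study. Each genotype was represented by 1 combined peak list made by the authors from its 2 samples, so replicate error could not be had, genotypes were compared without a test, and differences carry no p-value. A peak that overlapped a peak of the other list by at least 1 bp is called shared. Other peaks are called WT-only or cKO-only, which says that no peak was listed at that place in the other genotype and not that the chromatin was closed there.

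Forkhead proteins bind DNA through a winged helix, the forkhead box, whose core target reads TGTTTAC. The subfamilies have separate duties: FOXA proteins open compacted chromatin in endoderm, FOXO proteins are held in the cytoplasm by insulin and PI3K signalling and enter the nucleus when that signal is low, and FOXM1 drives mitotic genes. In the ovary, FOXL2 keeps granulosa cells, the somatic support of the oocyte, in their female identity. FOXO3 acts in the oocyte itself, where it holds primordial follicles dormant.

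RefSeq promoter windows, which run from 250 bases before to 50 bases after a transcription start in this build, were at hand for 28 of the 44 genes, with 33 windows in all. The 250 bases before the start are printed for 5 genes that span the range of results, on the strand of the gene and with each CG dinucleotide in capitals, since CG content was counted in every window. They are Foxo3 (chr10:42276696-42276945, minus strand), which had the strongest forkhead peak in both lists; Foxj3 (chr4:119539411-119539660, plus strand), a strong promoter peak of a broadly used member; Foxl2 (chr9:98955357-98955606, plus strand), the granulosa cell factor, with a weak but wide peak; Foxa1 (chr12:57546112-57546361, minus strand), a CG-dense window with no peak on it; and Foxr2 (chrX:153118538-153118787, plus strand), a CG-poor window of a gene with no peak at all.
Foxo3: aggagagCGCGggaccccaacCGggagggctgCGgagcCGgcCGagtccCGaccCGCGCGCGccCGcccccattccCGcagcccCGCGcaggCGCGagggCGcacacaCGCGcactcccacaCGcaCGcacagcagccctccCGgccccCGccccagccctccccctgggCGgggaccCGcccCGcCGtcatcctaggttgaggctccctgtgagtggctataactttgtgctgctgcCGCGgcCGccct
Foxj3: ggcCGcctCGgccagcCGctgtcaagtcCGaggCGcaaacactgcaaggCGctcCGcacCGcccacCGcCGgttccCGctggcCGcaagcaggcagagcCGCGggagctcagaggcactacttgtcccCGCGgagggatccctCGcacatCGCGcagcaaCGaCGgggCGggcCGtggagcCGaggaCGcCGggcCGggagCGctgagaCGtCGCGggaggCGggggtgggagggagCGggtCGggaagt
Foxl2: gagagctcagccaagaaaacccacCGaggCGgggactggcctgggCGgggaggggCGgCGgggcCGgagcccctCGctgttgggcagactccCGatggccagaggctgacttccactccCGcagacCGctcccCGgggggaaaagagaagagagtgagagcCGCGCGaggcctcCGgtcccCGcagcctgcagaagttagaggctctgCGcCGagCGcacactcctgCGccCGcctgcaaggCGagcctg
Foxa1: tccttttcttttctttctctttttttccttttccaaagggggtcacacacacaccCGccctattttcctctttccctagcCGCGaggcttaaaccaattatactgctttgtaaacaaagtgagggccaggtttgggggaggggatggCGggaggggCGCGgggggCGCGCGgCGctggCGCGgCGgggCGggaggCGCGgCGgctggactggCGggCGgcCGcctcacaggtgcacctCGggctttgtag
Foxr2: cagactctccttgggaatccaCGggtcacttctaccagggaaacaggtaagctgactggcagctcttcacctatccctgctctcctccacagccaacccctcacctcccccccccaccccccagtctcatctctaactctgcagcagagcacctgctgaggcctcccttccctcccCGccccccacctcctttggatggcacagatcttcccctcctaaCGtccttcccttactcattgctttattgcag

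Over the full windows of 300 bases, Foxo3 held 35 CG dinucleotides, Foxj3 42, Foxl2 27, Foxa1 26 and Foxr2 3. The median over all 33 forkhead windows was 22.0, against 13.0 over 21045 windows of all protein-coding genes. A peak lay on 16 forkhead windows in both lists, on 14 in neither, on 2 in the Gata2WT list alone (the first Foxa2 window and the second Foxp1 window) and on 1, at Foxa3, in the Gata2cKO list alone. The median CG count was 31.0 in the 16 windows with a peak in both lists and 11.0 in the 14 without one, against 22.0 and 3.0 for all coding windows of those kinds. At Foxa3 the Gata2WT peak (chr7:19023797-19025100) began just past the window's last base, 19023789, while the Gata2cKO peak began at 19023768, so the difference in that count is one of a peak edge.

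CG density did not set apart all open windows. Foxe3, a lens gene, and Foxi2, an ectodermal gene, had peaks in both lists on windows with 10 and 5 CG dinucleotides. Of the 14 windows with no peak, 4 held at least 20 (28.6%, against 3.8% of such windows over all coding genes): Foxa1 with 26, Foxd3 with 25, the second Foxa2 window with 23 and Foxn4 with 22. All 4 belong to genes with a gene-end peak outside that window in the Gata2WT list. Other developmental genes had peaks in both lists on windows as rich in CG, such as Foxc1 (32), Foxi3 (31) and Foxf2 (27). These are counts of single windows, and their relation to the open state was not tested.

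**Figure D1:**
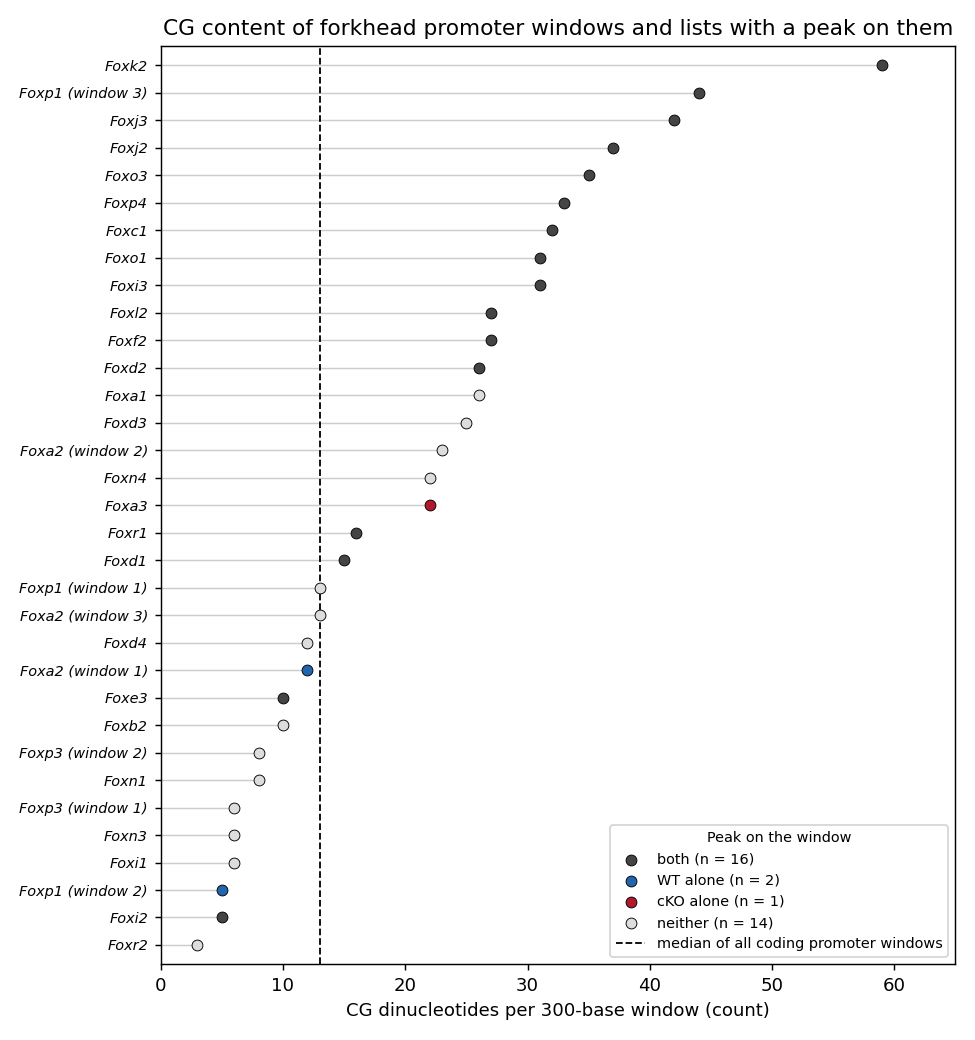
CG dinucleotides per 300-base promoter window (x axis, count) for the 33 windows of 28 forkhead genes (y axis), coloured by which list had a peak on the window. The 12 windows with 26 or more CG dinucleotides and a peak in both lists fill the top of the plot, and Foxa1, also with 26, has no peak.

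Short motifs were searched for in the same windows on both strands. The forkhead core TGTTTAC was found in 1 of 33 windows (3.03%), that of Foxa1, where it stands on the opposite strand as gtaaaca in the sequence printed above, and in 3.03% of all coding windows. The GATA sites AGATAA and TGATAA were in 2 (6.06%) and 1 (3.03%) of the forkhead windows, against 9.68% and 7.51% of all. The GC box CCGCCC was in 24 (72.7%), against 46.7% of all, and the AP-1 site TGACTCA in 2 (6.06%), against 4.69%. A match to letters in a window is a description and not a binding site.

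Peaks were then given to genes. A peak no more than 1 kb from either end of a gene is called a gene-end peak, one further inside is a gene body peak, and any other went to the gene with the nearest end within 100 kb and is called distal. In the Gata2WT list the 44 genes held 199 of 49394 peaks, in the other list 175 of 44139. The Gata2WT peaks comprised 56 at gene ends, 48 in gene bodies and 95 distal ones, and the Gata2cKO peaks 51, 52 and 72. The median forkhead gene had 3 peaks in each list, with a range from 0 to 17 and from 0 to 18, against medians of 2 and 1 for all coding genes. Forkhead genes are short and lie apart from others: the median length was 5.19 kb against 17.3 kb, and the median stretch from which peaks fell to a gene was 95.4 kb against 48.9 kb. Per 100 kb of that stretch they had 3.51 Gata2WT and 3.08 Gata2cKO peaks, against 2.64 and 2.38 for all coding genes.

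Of these peaks, 65 of 199 were WT-only (32.7%, 95% Wilson interval 26.5 to 39.5) and 39 of 175 were cKO-only (22.3%, 16.8 to 29.0). Over all peaks the shares were 28.5% and 19.7%, and both lie inside the forkhead intervals. The intervals cover counting error only, and peaks around 1 gene are not independent of one another. The Gata2WT list was also the longer one. With both lists at the same length the forkhead shares were 26.0% and 25.7%, against 23.1% and 22.8% over all peaks. Near equality of the 2 shares follows from cutting both lists to 1 length. Many distal peaks lay nearer to a noncoding gene: with such genes also competing, the family kept 136 Gata2WT and 130 Gata2cKO peaks. Of these, 28.7% were WT-only and 23.8% cKO-only, against 28.5% and 19.7% over all peaks.

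**Figure D2:**
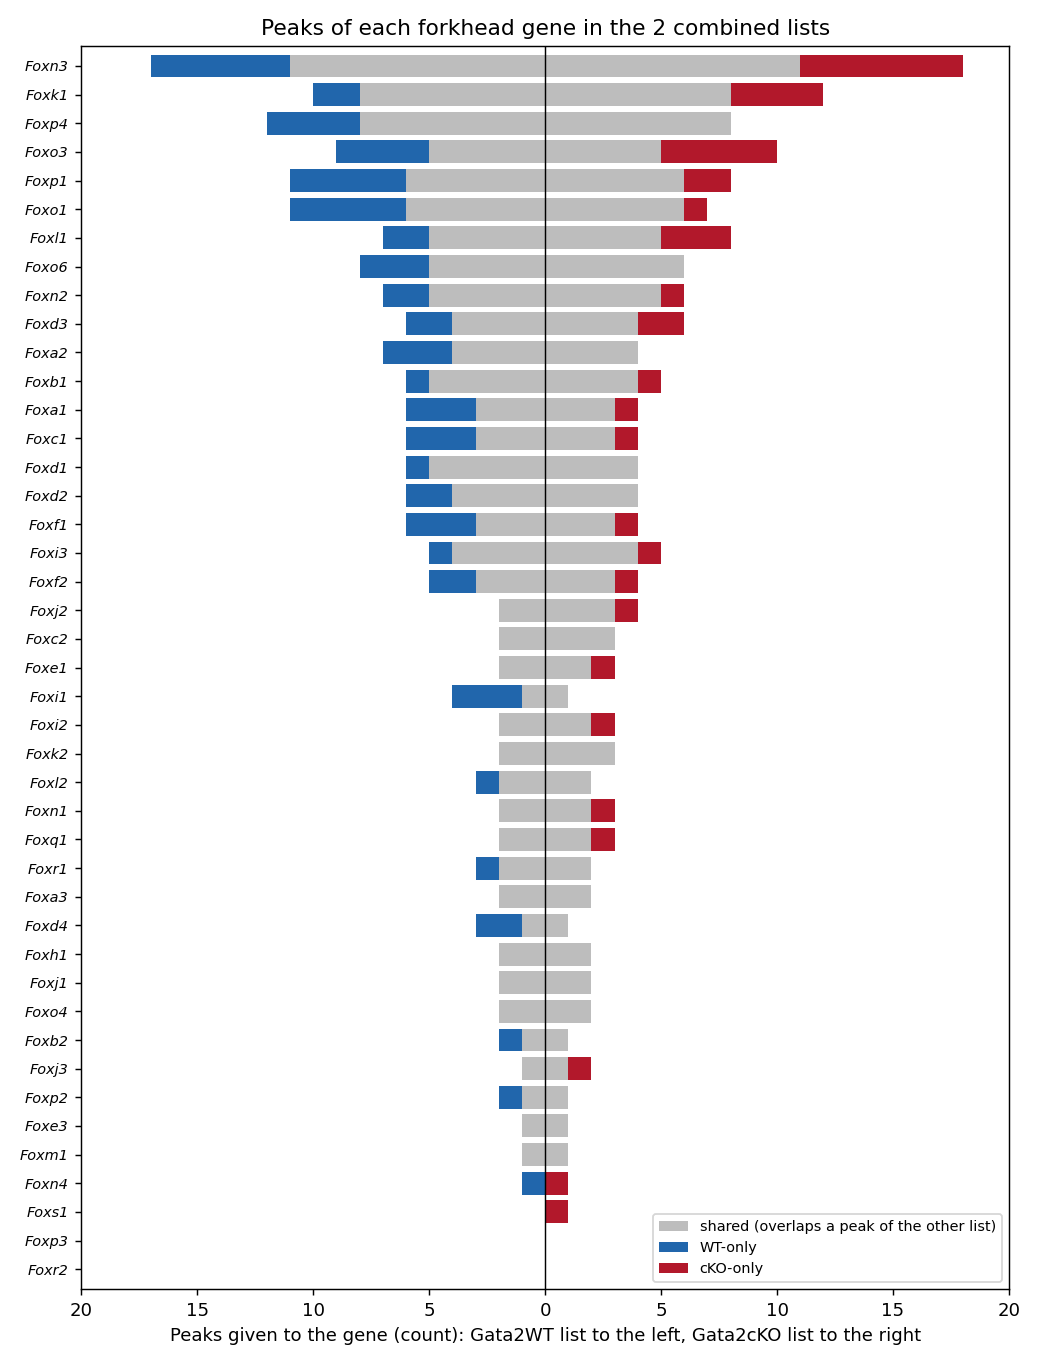
Number of peaks given to 43 of the 44 forkhead genes (x axis, count), with the Gata2WT list to the left and the Gata2cKO list to the right of 0; grey bars are shared peaks, blue bars WT-only and red bars cKO-only peaks. Foxn3 has the most peaks, 17 and 18, while Foxp3 and Foxr2 have none.

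Gene ends were open in both genotypes for nearly the whole family. A gene-end peak stood in both lists at 39 of 44 genes (88.6%), against 62.8% of all coding genes. It stood in the Gata2WT list alone at 2 genes, Foxa1 and Foxn4 (background 2.29%), and in the Gata2cKO list alone at 1, Foxs1 (background 1.3%). Foxp3, the master factor of regulatory T cells, and Foxr2 had no peak in either list. Both lie on X, as does Foxo4, which had 2 shared gene-end peaks.

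The strength of a peak is given as the authors' −log10 q, the significance of its summit over the local background in its own list, and as its pileup, the number of fragments stacked at the summit. These values were not scaled between lists, so they stand side by side and no change is read from them. The strongest gene-end peak of each forkhead gene had a median −log10 q of 22.4 over 41 genes in the Gata2WT list and 22.7 over 40 genes in the Gata2cKO list, against 45.1 and 37.0 for all coding genes with such a peak. The median pileup was 50 and 44 fragments, against 74 and 61, over local backgrounds that were alike (7.24 and 5.99 fragments, against 7.11 and 5.89). Forkhead gene ends were thus open in most members but at a lower height than the typical coding gene end. They were also broader: 25 of 41 (61.0%) had several summits in the Gata2WT list against 32.6% of all, and the median width was 1148 bp against 986 bp. In the Gata2WT list 6 of 41 (14.6%) reached a second coding gene, against 27.3% of all.

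**Figure D3:**
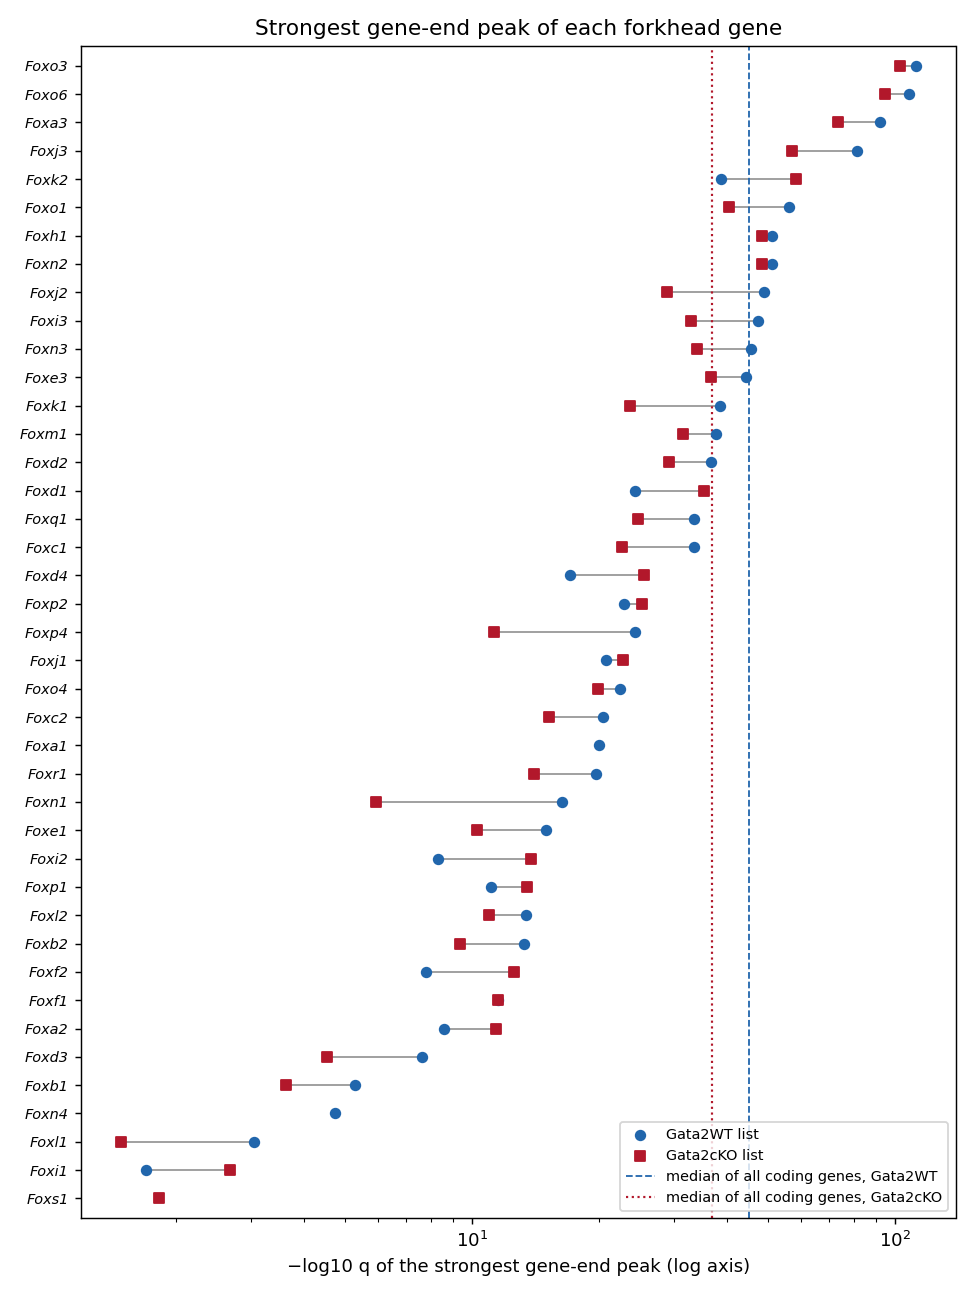
−log10 q of the strongest gene-end peak (x axis, logarithmic) for 41 of the 42 forkhead genes with one in either list (y axis), with circles for Gata2WT and squares for Gata2cKO; vertical lines mark the medians of all coding genes, 45.1 and 37.0. The genes run from Foxo3, at 112 and 103, down to Foxl1, Foxi1 and Foxs1 below 4.

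The strand is known for the 28 genes in the promoter table, which allows the start of a gene to be told from its end. Of the 26 such genes with a gene-end peak in the Gata2WT list, the strongest lay nearer to the last base than to the first at 5 (19.2%, against 7.39% of all coding genes): Foxa1, Foxb2, Foxc1, Foxi1 and Foxn1. In the Gata2cKO list Foxa1 had no gene-end peak, and the strongest peaks of Foxb2 and Foxc1 were nearer to the first base. The strongest lay nearer to the last base there at 3 of 24 genes (12.5%, against 7.37%): Foxd3, Foxi1 and Foxn1. At Foxn1, the thymus epithelium factor, the sole gene-end peak was of this kind (chr11:78358448-78358879, −log10 q 16.3 and 5.93), and its promoter window was bare in both lists. At Foxc1, a mesoderm and vessel factor, the peak past the last base (chr13:31810790-31812167) had 33.5 and 20.9, and the promoter peak (chr13:31806037-31807030) had 30.1 and 22.6. Forkhead coding regions are short, so a peak near the last base of Foxb2 also lies close to its start.

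Summits at gene ends mostly fell in the same place. For the strongest Gata2WT gene-end peak of 40 forkhead genes with an overlapping Gata2cKO peak, the summits were a median of 36 bp apart, and at 33 of them (82.5%) they lay within 250 bp. Over 13590 coding genes the median was 30 bp and the share 93.1%. The summits at Foxn3 were at the same base, and the widest gap was 973 bp.

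Of the FOXO genes, whose proteins answer to insulin and PI3K signalling, Foxo3 and Foxo6 held the strongest peaks of the family. Foxk1, Foxa3 and Foxj3 had stronger peaks than Foxo1 and Foxo4 in both lists. Foxo3, on chromosome 10, had a gene-end peak over its promoter of 2162 bp with 3 summits (chr10:42276412-42278573). Its −log10 q was 112 (Gata2WT) and 103 (Gata2cKO), with pileups of 219 and 188 fragments, which put it in the top 1.45% and 0.843% of the 2 lists. The Foxo6 gene-end peak (chr4:120286867-120288269) followed with 108 and 94.9, in the top 1.74% and 1.32%. At Foxo1 the peak was 2724 bp wide with 4 summits (chr3:52267563-52270286), at 56.1 and 40.5. Foxo4 had a peak at each end of the gene, with the Gata2cKO peak at 19.9 at the low-coordinate end and at 19.3 at the other. The Gata2WT peak there had 22.4 and also reached Gm614. All 4 FOXO genes had gene-end peaks with several summits in the Gata2WT list.

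Away from those peaks the FOXO genes differed. Of the 11 Gata2WT peaks of Foxo1 5 were WT-only, and of its 7 Gata2cKO peaks 1 was cKO-only. The strongest WT-only one lay 57.2 kb below the gene (chr3:52210718-52211259, −log10 q 8.2, pileup 17). With noncoding genes also competing for peaks, Foxo1 kept only 4 Gata2WT peaks, at its ends and in its body, with 2 WT-only. Its distal Gata2WT peaks, this peak among them, lay nearer to noncoding genes. The other 4 WT-only peaks of Foxo1 had −log10 q between 1.37 and 2.64. Foxo3 had 4 WT-only peaks among 9 and 5 cKO-only peaks among 10. Its WT-only peaks inside the gene included chr10:42251222-42251584 at 4.74 and chr10:42246378-42246712 at 4.33, and the strongest cKO-only peak was chr10:42261633-42261948 at 5.02 with a pileup of 19. At the same list length the counts were 4 and 1 for Foxo1 and 2 and 6 for Foxo3. At gene ends and in gene bodies alone, Foxo1 had 2 and 1 and Foxo3 had 3 and 3. With −log10 q of at least 5 in both lists, Foxo1 had 1 and 0 and Foxo3 had 0 and 1. The Foxo3 kinds thus did not differ in every setting. Foxo6 had 3 WT-only peaks, at 1.46, 2.55 and 1.97, and no cKO-only peak. Foxo4 had none of either kind.

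Foxl2 was open at low strength in both genotypes. Its gene-end peak covered the start and most of the gene, 2518 bp with 3 summits in the Gata2WT list (chr9:98954800-98957317) and 2550 bp with 4 summits in the Gata2cKO list. The −log10 q was 13.4 and 11.0 and the pileup 45 and 38 fragments, below the median of coding gene ends. The antisense noncoding gene Foxl2os lies 0.297 kb away and reaches under the same peak, so the openness of the 2 genes cannot be told apart there. A WT-only peak lay 4.29 kb above the gene (chr9:98962272-98962722, −log10 q 4.57, pileup 17), and a weak shared peak followed at 7.03 kb, with 3.57 and 5.81. These calls rest on the overlap rule: with at least 50% overlap asked for, 2 Foxl2 peaks were WT-only and 1 cKO-only, and when only summits within 250 bp counted as shared, all 3 and 2 peaks were single-list. In pooled chromatin, a strong peak in a few cells and a weak peak in many cannot be told apart, and the libraries were made from enriched rather than pure germ cells.

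Marker genes of ovarian cell types were read by the same gene-end rule, beside the 62.8% of all coding genes with a gene-end peak in both lists. A gene-end peak stood in both lists at 12 of 14 germ cell markers, with Pou5f1 in the Gata2WT list alone. It stood in both lists at 9 of 14 markers of ovarian supporting cells (Amhr2 in Gata2WT alone), 6 of 10 of stroma (Nr2f2 in Gata2WT alone), 4 of 6 of surface epithelium and 5 of 9 of endothelium. Macrophage markers had it at 1 of 9, and erythroid markers at 2 of 8. Supporting cell (64.3%), surface epithelium (66.7%) and stroma markers thus stood near the share of all coding genes, germ cell markers above it (85.7%) and blood cell markers below it. WT-only peaks made up 27 of the 62 peaks of supporting cell markers (43.5%, 31.9 to 55.9) and 26 of the 79 of germ cell markers (32.9%, 23.6 to 43.9), against 27.7% over the peaks of all coding genes. The interval of the supporting cell markers lay above 27.7%, and no test was made of it. Their peaks were 11 at gene ends, 25 in gene bodies and 26 distal. Over all coding genes the pairs of peak and gene were 16592, 20175 and 15094, so the 27.7% is not matched for place. WT-only shares were 16.7% for stroma (6 of 36), 29.4% for surface epithelium and 27.6% for endothelium. Macrophage and erythroid markers had 2 of 13 (15.4%) and 2 of 5 (40.0%). The intervals of these lists and of the germ cell markers hold 27.7%. Of the supporting cell peaks in the Gata2cKO list 17.8% were cKO-only, against 19.3% over all coding genes. The part that other ovarian cells have in the Foxl2 peaks was not tested. The combined lists held 49394 and 44139 peaks with a median pileup of 19 fragments in each, genome backgrounds of 2.19 and 2.01 fragments and median −log10 q of 6.72 and 7.14. Gata2 itself had 5 Gata2WT and 3 Gata2cKO peaks, and since the labels do not say which bases are deleted, this does not check the genotypes.

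Partners and targets of the family were counted from lists in the same way, and each count of gene ends open in both lists stands beside 62.8% of all coding genes. Of 18 partners and targets of FOXL2, which include hormone receptors and steroid enzymes, 11 had a gene-end peak in each list, Esr1 in Gata2WT alone and 6 in neither, so the share open in both (61.1%) was near that of all genes. Their peaks were WT-only in 35 of 86 cases (40.7%, 30.9 to 51.3) and cKO-only in 15 of 70 (21.4%). Of 26 genes of the insulin and PI3K cascade that controls FOXO proteins, 24 (92.3%) were open at a gene end in both lists and Ywhaz, a 14-3-3 protein that binds phosphorylated FOXO, in Gata2WT alone. Of 25 FOXO target genes, 19 (76.0%) had one in both lists and 2, Igfbp1 and Tnfsf10, in Gata2cKO alone.

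Single-list peaks were 29 of 121 (24.0%) and 19 of 111 (17.1%) for the upstream genes, and 18 of 79 (22.8%) and 15 of 76 (19.7%) for the targets. These shares stand beside 27.7% and 19.3% over the peaks of all coding genes. The interval of the FOXL2 list for WT-only peaks lay above 27.7%, again with no test. Its Gata2WT peaks were 13 at gene ends, 30 in gene bodies and 43 distal. Over all coding genes 6.68%, 37.5% and 35.2% of peaks at those places were WT-only, and the 27.7% is not matched for place. The FOXL2 list shares Wnt4, Fst, Runx1, Rspo1 and Nr5a1 with the supporting cell markers. Any peaks of these genes are counted in both shares, so the shares are not separate results. The lists were chosen with earlier results of these data known.

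Foxm1, the driver of G2 and mitosis genes, had 1 peak in each list and it was shared. It lay at a gene end and reached the neighbour Rhno1 (chr6:128362265-128363441), with −log10 q of 37.7 and 31.5 and pileups of 68 and 58. Of 20 mitotic targets of FOXM1, 19 were open at a gene end in both lists. Their single-list peaks were 5 of 37 (13.5%) and 6 of 38 (15.8%), beside 27.7% and 19.3% for all coding genes, and the interval of each share holds its background. Foxh1, the SMAD partner of Nodal signalling, had 2 shared peaks and no single-list peak. Its gene-end peak (chr15:76671322-76672347), which also reached Ppp1r16a, had 51.3 and 48.4, and the peak inside the gene had 7.89 and 7.26. Among 18 Nodal pathway genes tied to FOXH1, 17 (94.4%) were open at a gene end in both lists, with 31 of 85 peaks WT-only (36.5%, 27.0 to 47.1) and 13 of 65 cKO-only (20.0%, 12.1 to 31.3), and these intervals hold the same 2 shares.

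Foxd3, a factor of pluripotent cells and neural crest, had a weak gene-end peak inside the gene (chr4:99656885-99657567), at 7.63 and 4.55, while its promoter window had none. It had 2 WT-only and 2 cKO-only peaks among 6 and 6. Of these, the WT-only peak chr4:99650721-99651185 (−log10 q 4.15) and the cKO-only peak chr4:99651302-99651549 (2.28) were 0.117 kb apart, so they fill neighbouring bases of 1 region. The shared peak 10.7 kb below the gene had 1.97 (Gata2WT) and 7.59 (Gata2cKO). The Foxd3 counts therefore depend on where peak edges fell.

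Members with broad use in the body were open at a gene end in both lists, as were 39 of all 44 forkhead genes. Foxj3 had 81.5 and 57.0 at its start (chr4:119539031-119540649, also within reach of Frg2f1), Foxn2 had 51.2 and 48.6 at a gene end, and Foxk2 had 38.7 and 58.3. Foxj2 had 49.0 and 28.9 at its start and a shared peak in the gene that was 1 interval for Gata2WT (20.8) and 2 intervals for Gata2cKO (5.05 and 13.9). Its sole single-list peak was cKO-only and weak, past the last base, at 2.19. Foxj1, the master gene of motile cilia, had 20.7 and 22.8 at a gene end, shared with Rnf157, and 22.9 and 20.5 at a distal site 11.5 kb away. Foxa3, a liver factor, had 92.2 and 73.2, but that peak lay between its start and Sympk, a broadly used RNA processing gene. A peak that reaches both genes cannot be given to either.

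Foxa1 and Foxn4 were the genes whose gene-end peak was in the Gata2WT list alone. At Foxa1, a pioneer factor of endoderm, the Gata2WT peak near the last base (chr12:57538775-57539700) had −log10 q 20.0 and a pileup of 46. It overlapped a Gata2cKO peak (chr12:57538766-57539190, −log10 q 4.8, pileup 22) that ended more than 1 kb from the gene and so counted as distal. The other Gata2WT gene-end peak (chr12:57546465-57547142) was WT-only but weak, at 1.56. Foxa1 also had a strong shared distal peak 28.3 kb away, inside Ttc6, at 54.6 and 33.2. At Foxn4, a factor of the retina, each list had 1 peak: at the start in Gata2WT (chr5:114274319-114274687, 4.74, pileup 14) and inside the gene in Gata2cKO (chr5:114260221-114260481, 3.1, pileup 12).

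Foxs1, which is used by pericytes and sensory neurons, had 1 peak in all, in the Gata2cKO list (chr2:152933355-152933862). Its −log10 q was 1.82 and its pileup 11. None of the 3 differences in gene-end status rested on a strong peak that was absent from the other list. With only peaks of −log10 q of at least 5 the counts for Gata2WT and Gata2cKO alone were 3 and 0. A window of 2 kb gave 1 for Gata2WT alone, and lists of the same length or a window of 500 bp gave 2 for Gata2cKO alone.

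Single-list peaks were spread over the family. Of the 44 genes, 34 had at least 1 (77.3%, against 45.3% of all coding genes, which have fewer peaks each), 15 had both kinds, 12 had WT-only peaks without a cKO-only one and 7 the reverse. They were weak: the 65 WT-only peaks had a median −log10 q of 2.62, a median width of 369 bp and a median pileup of 12 fragments, against 11.0, 724 bp and 29 for the 134 shared Gata2WT peaks. The 39 cKO-only peaks had 2.5, 313 bp and 11, against 9.94, 655 bp and 25 for the 136 shared Gata2cKO peaks. At −log10 q of 10 and over, WT-only peaks were 2 of 74 (2.7%, 0.744 to 9.33) and cKO-only peaks 0 of 68 (upper bound 5.35%), against 1.1% and 0.707% over all coding genes. Below 5 the shares were 61.4% and 43.8%, against 58.2% and 43.4%. The forkhead shares at each strength thus lay near those of all coding genes.

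By place, 8.93% of Gata2WT gene-end peaks, 37.5% of gene body peaks and 44.2% of distal peaks (42 of 95, 34.6 to 54.2) were WT-only, against 6.68%, 37.5% and 35.2% over all coding genes. In the Gata2cKO list the shares were 5.88%, 34.6% and 25.0%, against 4.47%, 27.0% and 25.3%. The distal WT-only share was the one furthest above its background, and 35.2% lies inside its interval. With peaks counted only at gene ends and in gene bodies, the WT-only share was 22.1%. It stands beside the 6.68% and 37.5% of those places over all coding genes, whose joint share was not computed. Some single-list peaks had a peak of the other list nearby: 6 of 65 WT-only and 5 of 39 cKO-only peaks lay within 0.5 kb of one, among them a pair at Foxl1 0.004 kb apart and a pair at Foxi3 0.152 kb apart.

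**Figure D4:**
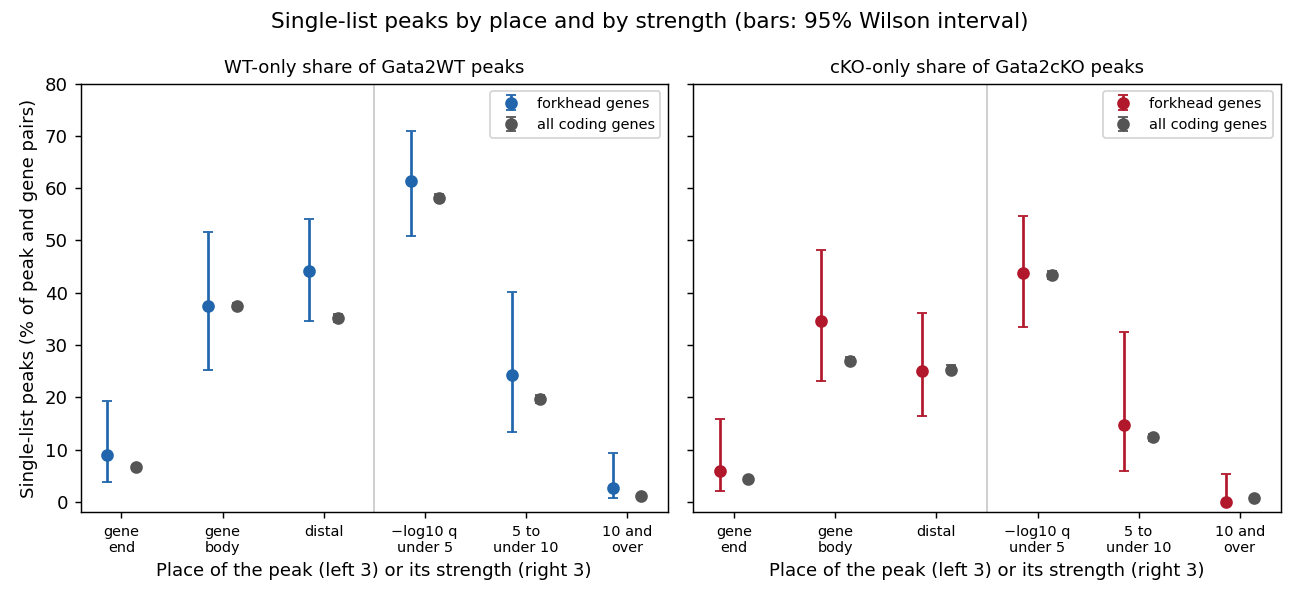
Share of peaks found in 1 list alone (y axis, percent) by place and by −log10 q (x axis), with 95% Wilson intervals, for forkhead genes in colour and all coding genes in grey. The share falls from 61.4% below a −log10 q of 5 to 2.7% at 10 and over in the Gata2WT list, and the grey points lie inside the forkhead intervals.

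The strongest WT-only peak of the family lay inside Foxn3, a repressor tied to the cell cycle checkpoint (chr12:99299830-99300401, −log10 q 12.3, pileup 28). It also lay inside the predicted coding gene Gm51999, so it cannot be given to Foxn3 alone. A cKO-only peak with 3.15 stood 0.45 kb away. Foxk1, a broadly used repressor of starvation genes, had the next, 74.1 kb below the gene (chr5:142327005-142327556, −log10 q 10.0, pileup 19). With noncoding genes also competing, Foxk1 kept 6 of its 10 Gata2WT peaks, and its distal peaks lay nearer to noncoding genes. After the Foxo1 peak already given came, among others, a distal peak of Foxn2 (chr17:88431736-88432185, 7.31).

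The strongest cKO-only peak lay in the body of Foxk1 (chr5:142451503-142451796, −log10 q 6.8, pileup 23). It was followed by peaks in the body of Foxn3 (chr12:99510928-99511218, 5.18), distal to Foxf2 (chr13:31658937-31659273, 5.18), in the body of Foxo3 (given above) and distal to Foxi2 (chr7:135376788-135377557, 4.51). Foxk1 and Foxn3 each thus held 1 of the leading peaks of both kinds, though these cKO-only peaks lay below the median −log10 q of the Gata2cKO list, 7.14. The Foxk1 region also held the third strongest Gata2WT peak of the family, a shared one 33.9 kb below the gene (chr5:142367132-142368003), at 96.2 and 72.0, well above its strongest gene-end peak at 38.6 and 23.6.

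By gene, WT-only and cKO-only peaks were most numerous in Foxn3 (6 and 7), the member with the most peaks, in a gene of 373587 bp. Without the peaks that also reach Gm51999, these counts were 4 and 4. Next for WT-only peaks were Foxo1 and Foxp1 with 5 each and Foxo3 and Foxp4 with 4 each. Foxp4 had 4 WT-only peaks among 12 and no cKO-only peak among 8, and at the same list length 3 and 0. The strongest of its WT-only peaks was chr17:47909481-47909807 at 6.68, inside the gene. Foxp1, a factor of blood, lung and heart, had 5 and 2 (3 and 2 at the same list length), with its strongest WT-only peak 83.9 kb below the gene at 6.45 and the other 4 between 1.11 and 3.31. For cKO-only peaks Foxo3 had 5, Foxk1 4 and Foxl1 3.

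The Foxp1 promoters show how a long gene with several starts is read. Its outermost window (chr6:99520944-99521243) had no peak, but it lies inside the gene, whose outer end is at base 99522746. Both gene-end peaks of each list lay above the window. The stronger was a shared peak just past that outer end (chr6:99523012-99523645 in Gata2WT), at 11.1 and 13.5. The innermost window (chr6:99028249-99028548), with 44 CG dinucleotides, lay under a shared peak of 27.9 and 20.6, the strongest of the gene. The middle one (chr6:99266466-99266765) was met by the Gata2WT peak at 10.1 and just missed by the overlapping Gata2cKO peak at 3.1.

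By role, WT-only peaks made up 11 of 31 (35.5%) for the FOXA, FOXB and FOXC genes, 17 of 53 (32.1%) for FOXD to FOXI, 12 of 30 (40.0%) for FOXO and 10 of 25 (40.0%) for FOXP. cKO-only peaks made up 3 of 23 (13.0%), 7 of 42 (16.7%), 6 of 25 (24.0%) and 2 of 17 (11.8%). The FOXJ genes had no WT-only peak among 5 and 2 cKO-only among 8, and the FOXK genes 2 of 12 and 4 of 15. For FOXM, FOXN and FOXR the counts were 10 of 31 in each list, and for FOXL, FOXQ and FOXS 3 of 12 and 5 of 14. With groups this small the Wilson intervals are wide, 24.6 to 57.7 for FOXO and 23.4 to 59.3 for FOXP, and they hold the 27.7% of all coding genes. The cKO-only intervals of all these groups hold the 19.3% of all coding genes, that of FOXM, FOXN and FOXR (18.6 to 49.9) included.

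Of the 44 genes, 6 sit in 2 clusters of 3. Others can lie as near to each other, as Foxd2 and Foxe3 do at 15.5 kb on chromosome 4. Foxf1, Foxc2 and Foxl1, genes of gut, vessel and mesenchyme, lie within 46.3 kb on chromosome 8 (chr8:121084386-121130644) with Mthfsd between them. Foxq1, Foxf2 and Foxc1 lie within 252 kb on chromosome 13 (chr13:31558170-31810635) with no other coding gene between. Within 1 kb of those spans the first cluster had 11 peaks of the Gata2WT list (4 were WT-only) and 9 of the Gata2cKO list (1 was cKO-only). The second had 13 (5 WT-only) and 10 (2 cKO-only).

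The shared gene-end peak of Foxf1 had 11.5 in each list. A WT-only peak lay beside it at the low-coordinate end of the gene (chr8:121084362-121084658, 5.03) and another 1.35 kb above the gene (chr8:121089289-121090205, 5.7). The noncoding gene Fendrr lies 1.28 kb from Foxf1 and reaches under the shared gene-end peak of Foxf1 (chr8:121082747-121083956 in Gata2WT). The openness of Foxf1 and Fendrr cannot be told apart there. Foxc2 had 20.4 and 15.2 at a gene end, and Foxl1 had 3.05 and 1.48, the lowest of the 3. In the other cluster Foxq1 had 33.5 and 24.7, Foxc1 the values given above, and Foxf2 7.77 and 12.6. The 3 distal WT-only peaks of Foxc1, 13.9 to 31.7 kb below the gene, had −log10 q of 4.82 at most.

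**Figure D5:**
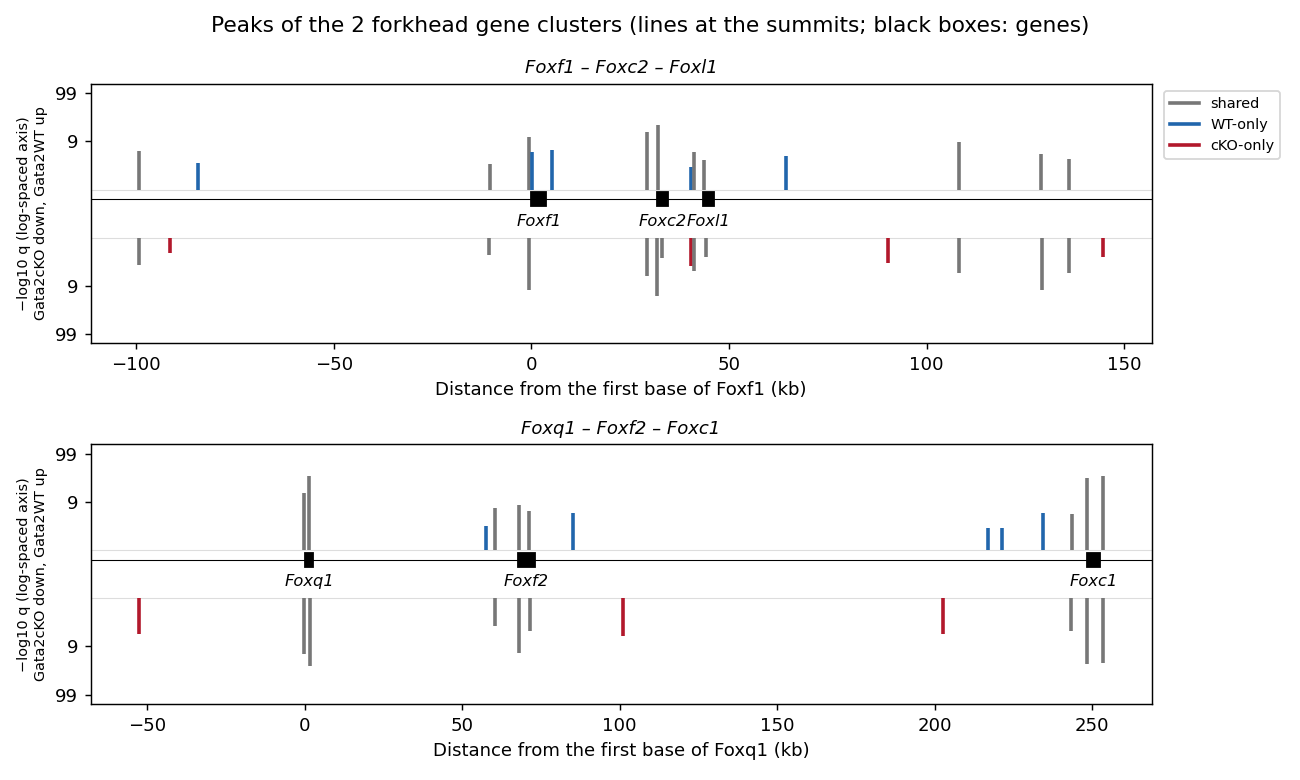
Peaks given to the genes of the 2 forkhead clusters, drawn at their summits by distance from the first base of the leftmost gene (x axis, kb); line height is −log10 q on a log-spaced axis, upward for Gata2WT and downward for Gata2cKO. The tall lines at gene ends are grey, that is shared, and the coloured single-list lines are short, 6 or less.

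Other families of developmental regulators were read by the same rules. The 19 Sox genes had 30.9% WT-only and 20.4% cKO-only peaks, the 17 T-box genes 36.1% and 13.0%, and the 39 Hox genes 29.9% and 19.1%, beside 32.7% and 22.3% for the forkhead genes. The intervals of all 4 families overlapped in each list. Gene-end peaks in both lists were at 17 of 19 Sox, 12 of 17 T-box and 24 of 39 Hox genes (89.5%, 70.6% and 61.5%), against 62.8% of all coding genes, so the Hox share was near that background. The median −log10 q of the strongest Gata2WT gene-end peak was 23.4 for Sox, 16.9 for T-box and 8.72 for Hox genes, beside 22.4 for forkhead genes, and all 4 lay under the 45.1 of all coding genes. Of those peaks 88.2%, 46.2% and 17.9% had several summits, beside 61.0% for forkhead genes. Their median widths were 1547, 963 and 630 bp, beside 1148 bp, so breadth was not particular to forkhead genes.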

How the data were processed

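ATAC-seq was done on 2 Gata2WT and 2 Gata2cKO samples, grouped by labelled genotype. The build was GRCm38 (mm10), per the submitters' processing notes, which name MACS2 2.2.6, Bowtie2 2.3.5.1, Trimmomatic 0.39, bedtools 2.29.2, Picard 2.23.0 and SAMtools without parameters. The sources used here do not give how the 2 samples of a genotype were combined. The deposited lists hold, for each peak, a fold enrichment, −log10 p and −log10 q values and a score. Fold enrichment was read as the ratio of summit pileup to local background, with the same small constant added to both. All these values are as the authors' peak caller gave them and unscaled between genotypes. The smallest deposited −log10 p was 3.0.

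Rows with the same interval were merged to the highest summit, which took 58367 rows to 49394 peaks (Gata2WT) and 52241 to 44139 (Gata2cKO) on the 19 autosomes and X. The pileup was solved from fold and −log10 p, and came out whole, within 0.001, for 99.996% and 99.9955% of peaks. Depth per sample was not analysed here. Overlap, gene assignment and Wilson intervals were computed in Python 3.11.15 (pandas 2.3.3, scipy 1.17.1). The overlap rule of at least 1 bp and the gene assignment were tested on simulated peaks. The gene table has no strand or exons, so a gene end can be either end, and peaks are placed no finer than gene end, body or distal. Each gene-end value is that of the peak with the highest −log10 q.

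The named genes were those with roles in ovary, germ or stem cells, those whose gene-end status differed between lists, up to 6 per direction with the most single-list peaks, the 5 strongest single-list peaks of each list, the 5 strongest shared gene-end peaks and the 2 clusters. The values of 1 member are not reported here, though it counts in all totals. Some other values in the text were chosen after they were seen. The members, lists and rules were chosen with earlier results of these data known. Alternatives covered the overlap rule, threshold, list length, window, distance, competing genes and summit rows.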

Additional observations from a re-analysis of the deposited data

How the results depend on the processing

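No paired analysis was possible because each genotype has 1 combined peak list and no value per sample; for the same reason no replicate could be left out. Of the 68 values computed for the 6 family-wide results under the alternatives, 50 stayed within the Wilson interval or within 1.5 times the count, and 18 did not. When summits within 250 bp counted as shared, the WT-only and cKO-only shares were 40.7% and 32.6% (all peaks 34.6% and 26.9%). With −log10 q of at least 5 in both lists they were 26.1% and 12.6% (all peaks 20.2% for WT-only, while the forkhead cKO-only share was under that of all peaks), and against the whole other list 9.91% and 4.21% (7.61% and 4.74%); in both cases gene-end peaks of Gata2cKO alone fell to 0 genes, those of Gata2WT alone came to 3 genes, and 6 genes had none. With lists of the same length the WT-only share was 26.0% and 2 genes had a gene-end peak in Gata2cKO alone. A window of 500 bp gave 2 genes in Gata2cKO alone and 4 in neither, and one of 2 kb gave 1 in Gata2WT alone. The WT-only share was 26.1% within 20 kb and 22.1% at gene ends and bodies. Shares over all coding genes in these settings were not computed. Leaving out peaks that reach a second gene put 6 genes in neither list. In an alternative chosen after seeing the data, in which peaks up to 500 bp apart also counted as shared, the shares were 29.6% and 19.4%. Among counts of single genes, 360 values stayed and 88 moved; Foxn3, with 6 WT-only and 7 cKO-only peaks, ranged from 1 to 8 and from 1 to 9. The cause of these moves was not tested, apart from the fewer peaks that a threshold or a shorter list leaves. Single-list peaks had a median pileup of 12 or 11 fragments, and no spread between samples was at hand.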
